A study of Mus musculus with 9 samples.

Results

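The protein arginine methyltransferase family comprises the enzymes that transfer methyl groups from S-adenosylmethionine to arginine side chains of histones, ribosomal proteins and RNA-binding proteins. Its members here were chosen by gene symbol alone (Prmt1, Prmt2, Prmt3, Carm1, Prmt5, Prmt6, Prmt7, Prmt8 and Prmt9) and make up 9 of the 53801 genes in the count table. The rule used no expression value, although the family was picked with earlier results of these data known.

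The cells were cultured mouse spermatogonial stem cells (SSCs) derived from Prmt5 flox/flox; Rosa26-CreERT2 animals, in which 4-hydroxytamoxifen (4OHT) activates Cre recombinase to delete Prmt5. All 9 libraries came from cells exposed to 4OHT at 1 µM, so the deletion treatment is shared by every group. The group 4OHT (3 libraries) was read as cells given no construct. The group MU (3 libraries) was read as cells overexpressing the catalytically inactive PRMT5 (E444Q), and the group OE (3 libraries) as cells overexpressing PRMT5 (WT). The labels abbreviate both constructs, and every statement about the mutation rests on that reading. The paper delivered the constructs by lentivirus, and the labels do not say whether the 4OHT group received an empty vector. In comparisons with 4OHT, transduction and the returned PRMT5 therefore cannot be told apart. An ethanol control was not analysed here, so the level of any member before deletion is not known from these data. Counts per gene do not separate endogenous, deleted and construct-derived Prmt5 transcripts. The comparisons ask whether the other members of the family shift when Prmt5 is missing, returned in inactive form or returned in active form.

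Arginine methyltransferases are divided by the product they leave on the arginine. Type I enzymes (PRMT1, PRMT2, PRMT3, CARM1, PRMT6 and PRMT8) place both methyl groups on the same nitrogen, giving asymmetric dimethylarginine. Type II enzymes (PRMT5 and PRMT9) place them on different nitrogens, giving symmetric dimethylarginine, and the type III enzyme PRMT7 adds a single methyl group. PRMT1 and PRMT5 are the main producers of the asymmetric and the symmetric mark in most cells, and PRMT5 is known for its roles in the development and maintenance of germ cells.

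The catalytic site of these enzymes holds a pair of glutamates that bind the guanidino group of the substrate arginine, in a segment known as the double-E loop. The coding sequence of the loop is shown because the E444Q construct changes the second of these glutamates in PRMT5, and because the same segment shows how closely the other members resemble it. A search of the GENCODE vM21 proteins for glutamate, any 2 residues, glycine, any 5 to 7 residues and glutamate gave a single match in 8 members and 2 matches in Prmt2. A match is a pattern of letters and not by itself the catalytic pair, and only 4 matches are shown. The sequences are written 5′ to 3′ on the coding strand from GRCm38, with 3 further codons on each side and the codons of both glutamates in capitals.
Prmt5: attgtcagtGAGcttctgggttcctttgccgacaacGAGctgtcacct
Prmt1: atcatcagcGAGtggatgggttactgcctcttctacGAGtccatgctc
Prmt8: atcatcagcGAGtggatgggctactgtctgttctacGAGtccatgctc
Carm1: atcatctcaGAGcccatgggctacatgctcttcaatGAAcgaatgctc

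The Prmt5 segment lies at chr14:54510913-54510960 on the minus strand in exon 12, and its glutamates are residue 435 and the residue that E444Q replaces. The latter is read from a GAG codon at 54510922 to 54510924, and the reference protein has the E of E444Q at that position. The Prmt1 segment (chr7:44979416-44979463, minus strand) and the Prmt8 segment (chr6:127711815-127711862, minus strand) differ at 3 of the 30 bases from the first glutamate codon to the second. Over the whole protein, Prmt1 and Prmt8 share 284 of 357 aligned residues (79.6%). The longest run of bases common to their transcripts is 38, shorter than the 150 bp reads. The Carm1 segment (chr9:21580399-21580446, plus strand) codes its second glutamate as GAA.

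Total counts per library ranged from 78751996 to 95370711 in 4OHT, from 192033300 to 365719548 in MU and from 79941857 to 154557863 in OE. Values of 4 counts were 1.35 to 1.84 times as frequent as their neighbours, and 1 read pair may therefore stand for about 4 counts, although how the counts were formed is not stated. Levels are given as CPM, the count as a rate on the library size after TMM normalization, and as mean ± SD (n = 3). Changes are log2 fold changes with standard errors (SE) from edgeR's quasi-likelihood test, and a gene was called at a Benjamini-Hochberg adjusted p under 0.05 over the 22452 genes that passed the filter on low counts. Germ cell markers were expressed in every group, with a summed level of 2599 to 2683 CPM in 4OHT, 3389 to 3486 in MU and 3648 to 3683 in OE. The 12 fibroblast markers, which cells of a feeder layer would carry, summed to 9642 to 11660, 5275 to 5350 and 4141 to 4216 CPM in the same order. The 11 macrophage markers summed to 170.4 to 187.5, 1148 to 1180 and 2232 to 2356 CPM. All 12 fibroblast markers were lower in OE and 11 of 12 in MU than in 4OHT, all 11 macrophage markers were higher in both, and 9 of 14 germ cell markers were higher and 4 lower in both. The 4 lower germ cell markers were Zbtb16, Gfra1, Ret and Etv5. Etv5 differed most, at 125.5 CPM in 4OHT, 13.8 in MU and 12.1 in OE. Kit had the largest difference upwards, at 16.3, 81.1 and 81.7 CPM. The germ cell sums hide these opposite changes, and a difference in germ cell state between the groups was not tested. Among markers of testicular somatic cells, those of Sertoli cells summed to 14.8 to 26.6 CPM and those of Leydig cells to 4.51 to 7.12 CPM over all libraries, with Hsd3b1 at 0 in every library. The part of these markers in the member values was not tested. In bulk RNA, fewer cells of a type and less RNA per cell cannot be told apart. The library 4OHT replicate 3 stood further from its replicates than any other. On counts divided by 4, its squared differences were 16.5 and 11.5 times counting noise, against 5.37 between replicates 1 and 2. These multiples assume that 1 read pair stands for 4 counts. Results that rest on it are given with and without it.

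Prmt5 itself separated the groups completely. Its level was 32.0, 30.8 and 28.2 CPM in the 4OHT libraries, 145.2, 147.1 and 146.1 CPM in the MU libraries and 1072, 1071 and 1085 CPM in the OE libraries. Each group is narrow and none overlaps another, so MU and OE are unequal in Prmt5 RNA as well as in the mutated codon. These data hold no protein values, and the paper reports from western blots that either construct brought PRMT5 protein back. The level was 4.82-fold that of 4OHT in MU (log2 2.27, SE 0.0513, adjusted p = 7.61e-13 from edgeR) and 35.5-fold in OE (log2 5.15, SE 0.0578, adjusted p = 1.87e-15 from edgeR). MU was lower than OE by a log2 fold change of -2.88 (SE 0.0515, adjusted p = 1.09e-12 from edgeR). Of all genes tested, 1.1% had a larger absolute change in OE against 4OHT, 5.2% in MU against 4OHT and 0.5% in MU against OE.

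Against 4OHT, 6 of the 9 members were called in OE (5 higher, 1 lower) and 5 of 9 in MU (4 higher, 1 lower). These counts stand beside a background in which 57.8% of all genes tested were called in OE (29.9% higher, 27.9% lower) and 56.0% in MU (29.5% higher, 26.5% lower). Without Prmt5, the remaining 8 members gave 4 higher, 1 lower and 3 not called in OE, and 3 higher, 1 lower and 4 not called in MU. Their median log2 fold change was 0.19 in OE and 0.09 in MU, beside 0.02 and 0.04 over all genes tested. These counts and medians include Prmt8, which passed the filter on low counts only through its OE libraries. The share of members called was thus near the background in both comparisons. That background includes genes of low count. With counts divided by 4, which leaves fewer of these, 12376 of 18097 genes were called in OE and 12385 in MU. Beside them, 5 of 8 members were called in each. At a change of at least 1.5-fold, Prmt5 was the sole member called in either comparison, where 35.3% of all genes passed in OE and 32.9% in MU. Between MU and OE, Prmt5 was the sole member called, beside 3.17% of all genes.

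**Figure D1:**
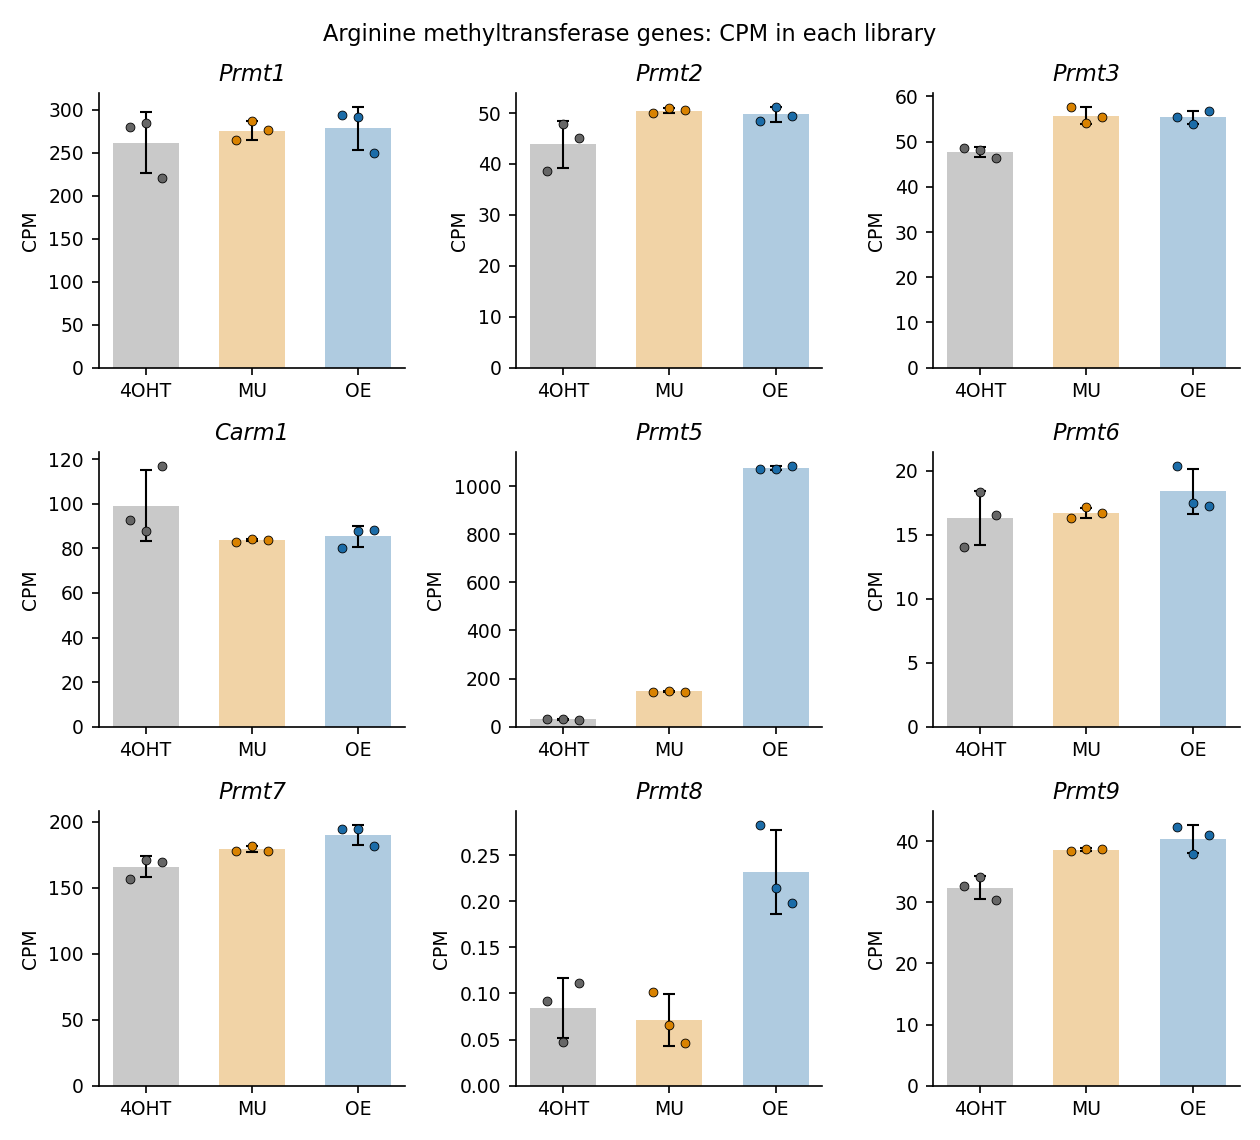
CPM (linear axis from 0, scaled for each gene) of the 9 members in the 4OHT, MU and OE groups. Points are libraries, bars are group means and error bars are SD (n = 3). Prmt5 runs from about 30.3 to 1076 CPM between 4OHT and OE. The members other than Prmt5 and Prmt8 differ little in height between the groups. Prmt8 lies below 0.3 CPM throughout, with means of 0.084 in 4OHT, 0.071 in MU and 0.23 in OE.

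Among the type I enzymes, Prmt1 had the highest level and no change that passed the test. Prmt1, the predominant asymmetric methyltransferase, lies on chromosome 7 of GRCm38 from 44975989 to 44986568. It was at 279.2, 285.0 and 220.6 CPM in 4OHT, 264.1, 286.6 and 276.3 CPM in MU and 294.1, 291.7 and 249.4 CPM in OE. The groups overlap, and 4OHT replicate 3 is the lowest library. The log2 fold change was 0.09 in OE (SE 0.0887, adjusted p = 0.413 from edgeR, 95% interval -0.10 to 0.28) and 0.08 in MU (SE 0.0886, adjusted p = 0.499 from edgeR, 95% interval -0.12 to 0.27). Without 4OHT replicate 3 the estimates became -0.03 and -0.04.

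Prmt3, a cytosolic enzyme whose main substrate is the ribosomal protein RPS2, was higher in both construct groups (chromosome 7, 49778346 to 49858265). Its level was 48.5, 48.3 and 46.5 CPM in 4OHT, 57.8, 54.1 and 55.4 CPM in MU and 55.5, 54.0 and 56.8 CPM in OE. Every library of MU and OE lay above every library of 4OHT. The log2 fold change was 0.22 in OE (SE 0.051, adjusted p = 0.00239 from edgeR) and 0.22 in MU (SE 0.0507, adjusted p = 0.00181 from edgeR), a difference of 1.16 and 1.17-fold. These calls held under each of the 16 other fits tried, but neither change reaches 1.5-fold.

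Prmt2, a methyltransferase of weak activity that acts as a coactivator of nuclear receptors, was also slightly higher (chromosome 10, 76207222 to 76237865). It was at 38.7, 47.8 and 45.0 CPM in 4OHT, 49.97, 50.89 and 50.5 CPM in MU and 48.5, 51.3 and 49.4 CPM in OE. Neither construct group overlapped 4OHT, but 4OHT replicate 1 lay below its own replicates. The log2 fold change was 0.18 in OE (SE 0.0697, adjusted p = 0.0390 from edgeR) and 0.20 in MU (SE 0.0693, adjusted p = 0.0230 from edgeR). Without 4OHT replicate 1 these became 0.08 (adjusted p = 0.212 from edgeR) and 0.11 (adjusted p = 0.110 from edgeR), and the call in OE was lost under 10 of the 16 other fits.

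Carm1, a coactivator-associated enzyme that methylates histone H3 and splicing factors, was the only member called lower in the construct groups (chromosome 9, 21546894 to 21592623). It was at 92.9, 87.7 and 117.2 CPM in 4OHT, 83.1, 84.0 and 83.7 CPM in MU and 80.0, 87.7 and 88.4 CPM in OE. The high 4OHT value is again that of replicate 3, and OE overlaps 4OHT while MU does not. On the log2 scale the change was -0.22 in OE (SE 0.0864, adjusted p = 0.0451 from edgeR) and -0.25 in MU (SE 0.0860, adjusted p = 0.0249 from edgeR). Without 4OHT replicate 3 the estimates were -0.09 (adjusted p = 0.164 from edgeR) and -0.12 (adjusted p = 0.0718 from edgeR), and neither was called. Exons of Carm1 and of Yipf2 on the opposite strand overlap over 1025 bp. Yipf2 held 34532 counts over all libraries, and the strand setting of the counting is not given in the sources used here. The part of this overlap in the Carm1 values was not tested.

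Prmt6, which methylates arginine 2 of histone H3 in the nucleus, did not pass the test in any comparison (chromosome 3, 110246109 to 110250998). It was at 14.1, 18.4 and 16.5 CPM in 4OHT, 16.3, 17.1 and 16.7 CPM in MU and 20.4, 17.5 and 17.3 CPM in OE. The estimate was 0.17 on the log2 scale in OE (SE 0.0985, adjusted p = 0.157 from edgeR, 95% interval -0.04 to 0.38) and 0.04 in MU (SE 0.0976, adjusted p = 0.788 from edgeR, 95% interval -0.18 to 0.25). The OE estimate ranged with the libraries, from 0.06 without 4OHT replicate 1 (adjusted p = 0.619 from edgeR) and 0.10 without OE replicate 1 to 0.27 without 4OHT replicate 2, where it was called, as it was on total counts (0.26). Exons of Prmt6 overlap those of the antisense gene C130013H08Rik over 984 bp. That gene held 1624 counts over all libraries, and the strand setting of the counting is not given.

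Prmt8, a membrane-anchored enzyme found mainly in brain, was close to the limit of detection (chromosome 6, 127689011 to 127769472). Its raw counts were 7, 4 and 10 in 4OHT, 20, 25 and 11 in MU and 23, 20 and 31 in OE, the lowest of the family in every library. These correspond to 0.0923, 0.0478 and 0.112 CPM, 0.101, 0.0660 and 0.0463 CPM, and 0.283, 0.214 and 0.198 CPM. The OE libraries lay above all others, and Prmt8 passed the filter (0.105 CPM in 3 libraries) through OE alone, where 3 libraries exceeded it against 1 in 4OHT and 0 in MU. The fitted log2 fold change of 1.45 in OE against 4OHT had an SE of 0.713 (adjusted p = 0.0994 from edgeR) and that of -1.69 in MU against OE an SE of 0.685 (adjusted p = 0.306 from edgeR), so that neither was called. Once counts were divided by 4, this gene was too low to be tested.

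Among the remaining enzymes, Prmt9, the second type II enzyme, which methylates the splicing factor SF3B2, was higher in both construct groups (chromosome 8, 77549397 to 77581338). It was at 32.6, 34.1 and 30.4 CPM in 4OHT, 38.4, 38.8 and 38.7 CPM in MU and 42.3, 37.8 and 41.1 CPM in OE. No 4OHT library reached the level of any MU or OE library. The log2 fold change of 0.32 in OE (SE 0.0625, adjusted p = 0.000558 from edgeR) was the largest of the members other than Prmt5 and Prmt8, and that in MU was 0.25 (SE 0.0620, adjusted p = 0.00308 from edgeR). Both calls held under each of the 16 other fits, and neither change reaches 1.5-fold.

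Prmt7, the monomethylating enzyme, was higher in OE (chromosome 8, 106210936 to 106252794). It was at 156.8, 171.2 and 169.3 CPM in 4OHT, 177.9, 181.7 and 177.5 CPM in MU and 194.5, 194.5 and 181.2 CPM in OE. The 4OHT libraries lay below all others. The change was 0.20 on the log2 scale in OE (SE 0.0499, adjusted p = 0.00375 from edgeR), a call that held under each of the 16 other fits without reaching 1.5-fold, and 0.11 in MU (SE 0.0498, adjusted p = 0.0745 from edgeR). The MU estimate was called under 4 alternatives, with values between 0.12 and 0.22, and was 0.06 without 4OHT replicate 1 (adjusted p = 0.311 from edgeR).

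The libraries did not overlap for 6 of 9 members between OE and 4OHT (Prmt2, Prmt3, Prmt5, Prmt7, Prmt8 and Prmt9), beside 61.6% of all genes tested. They did not overlap for 6 of 9 between MU and 4OHT (Prmt2, Prmt3, Carm1, Prmt5, Prmt7 and Prmt9), beside 63.9%. Between MU and OE they did not overlap for Prmt5, Prmt6 and Prmt8, beside 25.9%. Prmt8 entered the test only through its OE libraries, so its place in these counts supports nothing. Most changes of the other members were small on the scale of these data. Of all genes tested, 67.7% had a larger absolute change than Prmt9 in OE against 4OHT, 77.6% a larger one than Prmt3, and 90.7% a larger one than Prmt1.

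**Figure D2:**
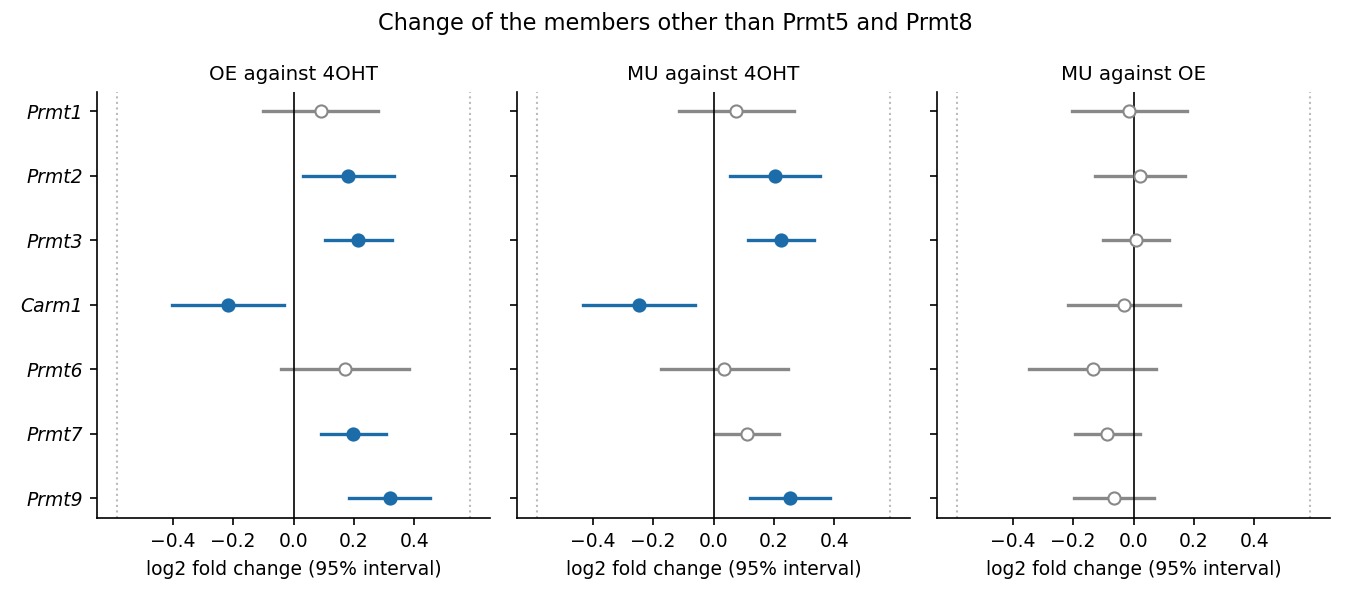
Log2 fold changes (horizontal axis, points) of the 7 members other than Prmt5 and Prmt8 with 95% intervals (lines) for OE against 4OHT, MU against 4OHT and MU against OE. Filled points have an adjusted p under 0.05, and dotted lines mark a 1.5-fold change, which no estimate reaches, the extremes being -0.25 for Carm1 and 0.32 for Prmt9.

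The comparison of MU with OE asks whether the other members differed between the inactive and the active construct. None of the 8 was called, with a median log2 fold change of -0.05 (Prmt8 included) beside 0.01 over all genes. The estimate was 0.01 for Prmt3 (95% interval -0.10 to 0.12), 0.02 for Prmt2 (95% interval -0.13 to 0.17) and -0.01 for Prmt1 (95% interval -0.21 to 0.18). For Carm1 it was -0.03 (95% interval -0.22 to 0.16), for Prmt9 -0.06 (95% interval -0.20 to 0.07), for Prmt7 -0.09 (95% interval -0.19 to 0.02) and for Prmt6 -0.14 (95% interval -0.35 to 0.07). Leaving out Prmt8, the intervals lie within a 1.5-fold change in either direction, and they do not show that the levels were equal. DESeq2 likewise called none of them. The unadjusted p from edgeR was under 0.05 for 1 of the 8, Prmt8 (0.0279), which passed the filter only through OE. The OE and MU comparisons with 4OHT share the same 3 control libraries, so their like values for Prmt2, Prmt3, Carm1 and Prmt9 are not independent of each other.

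Levels were compared between members per length, as CPM per kb of the union of exons. The length of the construct RNA is not given in the sources used here. Values of Prmt5 per length in MU and OE, with its ranks, shares and ratios, are therefore uncertain. In 4OHT the order ran from Prmt1 (76.4 CPM per kb) through Prmt7 (27.1), Carm1 (20.5), Prmt2 (13.0), Prmt3 (7.96), Prmt5 (7.66), Prmt9 (5.70) and Prmt6 (3.89) to Prmt8 (0.0308). Only the neighbours Prmt3 and Prmt5 overlapped between libraries. Prmt5, the sixth of the 9 in 4OHT, stood at 36.9 CPM per kb in MU, below Prmt1 (80.5), and at 271.9 CPM per kb in OE, above all others. The order of the other 8 members was the same in the 3 groups on this length. On the length of the longest transcript, Prmt2 stood above Carm1 in MU and below it in 4OHT and OE.

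Prmt5 made up 4.73 ± 0.198% (SD, n = 3) of the summed level per length of the family in 4OHT, 18.6 ± 0.241% in MU and 62.2 ± 1.33% in OE. The libraries did not overlap in any pair of groups, at the smallest p that 3 against 3 can give (two-sided exact permutation test, p = 0.10 for each). The other 8 members together gave 154.5 ± 7.62 CPM per kb in 4OHT, 162.0 ± 3.64 in MU and 165.4 ± 8.08 in OE (exact permutation p = 0.20 for either construct against 4OHT and 0.60 between them). Within these 8, Prmt1 held 49.3 ± 4.71% in 4OHT, 49.7 ± 0.922% in MU and 49.1 ± 2.11% in OE. The share of Carm1 was 13.3 ± 2.79%, 10.6 ± 0.180% and 10.7 ± 0.990% (exact permutation p = 0.10 for MU and 0.20 for OE against 4OHT). Without 4OHT replicate 3, at 16.5%, the mean share of Carm1 in 4OHT was 11.8%.

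**Figure D3:**
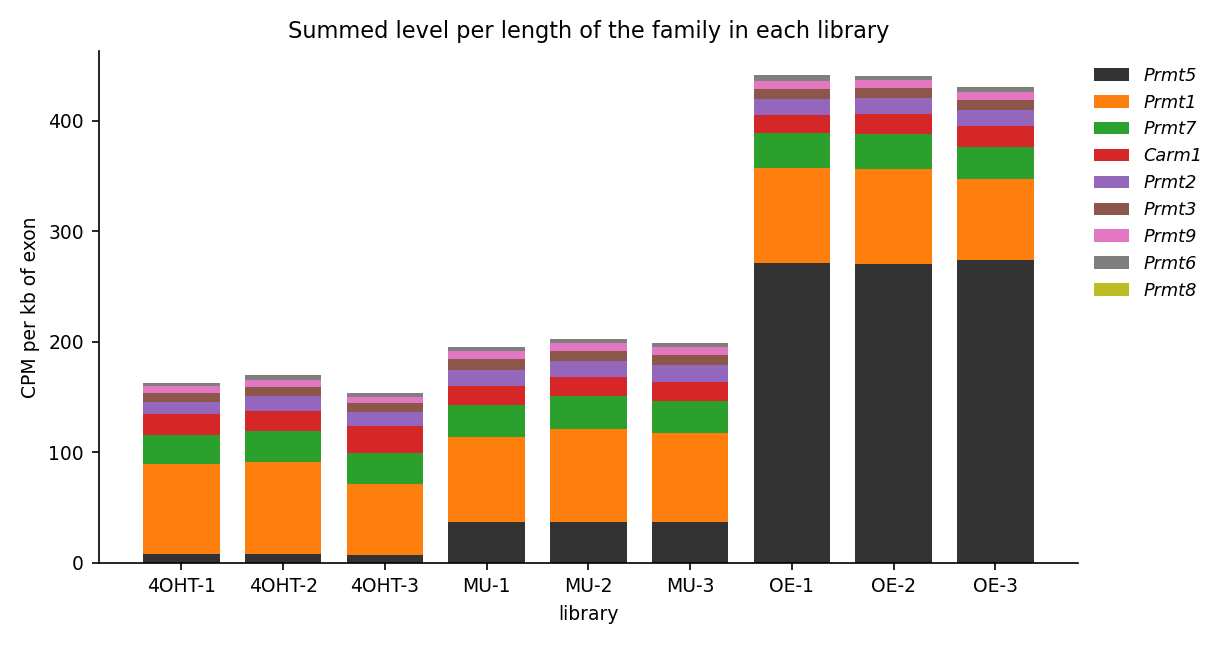
Summed CPM per kb of exon (vertical axis, linear from 0) of the 9 members in each library, stacked by gene. The Prmt5 segment grows from a mean of 7.66 in 4OHT to 36.9 in MU and 271.9 in OE, while the segments of the other members together stay between 146.6 and 170.1 CPM per kb.

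PRMT5 acts in a complex with WDR77 (MEP50), and its adaptors steer it to substrates. Of the 4 partner genes, Wdr77 and Coprs were higher in both construct groups, Riok1 was lower and Clns1a was not called. Wdr77, the obligate partner, was at 164.1, 158.3 and 154.1 CPM in 4OHT, 247.8, 253.0 and 254.8 CPM in MU and 246.4, 242.3 and 239.1 CPM in OE. Its log2 fold change was 0.61 in OE (SE 0.0438, adjusted p = 3.30e-08 from edgeR) and 0.67 in MU (SE 0.0437, adjusted p = 1.63e-08 from edgeR). The level was nearly the same in MU and OE (log2 fold change 0.05, adjusted p = 0.704 from edgeR), although Prmt5 differed by 2.88 on this scale. The ratio of Prmt5 to Wdr77 per length therefore ran from 0.233 in 4OHT through 0.710 in MU to 5.43 in OE.

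Coprs, which links the complex to histone H4, was at 42.6 ± 5.75 CPM in 4OHT, 66.7 ± 2.49 in MU and 67.5 ± 2.83 in OE (log2 fold change 0.65 in MU and 0.66 in OE, adjusted p = 1.13e-05 and 8.71e-06 from edgeR). Riok1, an adaptor that recruits nucleolin, was at 37.4 ± 1.53, 26.9 ± 1.36 and 23.9 ± 1.18 CPM (log2 fold change -0.48 in MU and -0.65 in OE, adjusted p = 2.17e-05 and 1.12e-06 from edgeR). Clns1a (pICln), the adaptor for Sm proteins that competes with RIOK1 for the same site on PRMT5, was at 80.8 ± 4.04, 78.6 ± 2.28 and 77.9 ± 2.00 CPM (log2 fold change -0.04 in MU and -0.05 in OE, adjusted p = 0.534 and 0.403 from edgeR). In MU against OE the estimate was 0.17 for Riok1 (adjusted p = 0.258 from edgeR) and -0.02 for Coprs (adjusted p = 0.969 from edgeR).

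Genes outside the family that act with it moved in both directions, as did all genes (57.8% called in OE and 56.0% in MU). Btg1 and Btg2, antiproliferative proteins that bind and stimulate PRMT1, were both lower in OE (log2 fold change -0.30 and -0.34) and in MU (-0.28 and -0.23), with adjusted p from edgeR between 7.99e-06 and 0.000817. Btg2 was at 246.3 CPM in 4OHT, 210.7 in MU and 194.6 in OE. The arginine methyltransferases outside the family, the mitochondrial Ndufaf7 and Mettl23, were both higher. Ndufaf7 was at 22.4 ± 2.49 CPM in 4OHT, 29.0 ± 2.02 in MU and 30.2 ± 1.49 in OE, and Mettl23 at 9.39 ± 1.32, 16.4 ± 1.28 and 14.8 ± 1.04 CPM. Their log2 fold changes in OE were 0.43 and 0.66 (adjusted p = 0.000543 and 0.000125 from edgeR).

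Of 8 genes for enzymes of citrulline and methylarginine, 7 were tested. In OE, 2 were higher, 2 lower and 3 not called, and in MU 2 were higher, 3 lower and 2 not called, with medians of -0.02 and -0.09, where 57.8% and 56.0% of all genes were called. The dimethylarginine hydrolases moved apart, Ddah2 from 92.5 CPM in 4OHT to 156.5 in OE (log2 fold change 0.76) and Ddah1 from 117.0 to 71.5 CPM (log2 fold change -0.71), with 161.7 and 77.1 CPM in MU. Jmjd6, reported as an arginine demethylase and lysyl hydroxylase, was higher by 0.16 in OE and 0.22 in MU, and the call in OE was lost without 4OHT replicate 1. Padi3, a peptidylarginine deiminase, was at 57.2, 53.8 and 56.6 CPM in 4OHT, MU and OE and was not called.

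The S-adenosylmethionine cycle supplies the methyl donor. Of its 13 genes 12 were tested, with 4 higher, 2 lower and 6 not called in OE and 5 higher, 2 lower and 5 not called in MU (medians 0.07 and 0.16), beside 57.8% and 56.0% of all genes called. Mtr, the methionine synthase, was at 246.6 CPM in 4OHT, 392.9 in MU and 422.1 in OE (log2 fold change 0.78 in OE, adjusted p = 2.51e-09 from edgeR). Mat2a, the catalytic subunit that makes the donor, was at 241.7, 247.5 and 231.0 CPM and was not called, while its regulatory subunit Mat2b was higher by 0.24 in both groups. Ahcyl1 was at 181.6, 168.8 and 166.8 CPM and was not called. Mtap, named after its values were seen, breaks down methylthioadenosine, an inhibitor of PRMT5, and was at 88.9 ± 4.31 CPM in 4OHT, 46.3 ± 3.16 in MU and 43.6 ± 1.49 in OE (log2 fold change -1.03 in OE, adjusted p = 5.40e-09 from edgeR).

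Tudor domain proteins bind methylated arginine. Of 4 such genes, 2 were higher (Smndc1 and Smn1), 1 was lower (Tdrd3) and Snd1 was not called, in both construct groups (medians 0.16 in OE and 0.10 in MU). The call of Tdrd3 in MU was lost on total counts. Smndc1 was at 87.4 CPM in 4OHT, 116.4 in MU and 120.3 in OE. Of 16 genes for known substrates, 10 were higher and 2 lower in OE, and 7 were higher and 2 lower in MU (medians 0.20 and 0.09), beside 29.9% higher and 27.9% lower of all genes in OE and 29.5% and 26.5% in MU. Pabpc1, a poly(A) binding protein methylated by CARM1, was at 1624, 1574 and 1574 CPM and was not called, nor was Sf3b2, the substrate of PRMT9, at 443.5, 425.6 and 449.8 CPM. Hnrnpa1, a splicing factor methylated by PRMT1 and PRMT5, was higher by 0.19 in OE (adjusted p = 0.0137 from edgeR) and by 0.08 in MU (adjusted p = 0.278 from edgeR). Rps2, the substrate of PRMT3, was at 200.1 ± 26.0 CPM in 4OHT, 1572 ± 36.3 in MU and 1647 ± 66.6 in OE (log2 fold change 3.04 in OE). Its value is uncertain because Rps2 has many near-identical pseudogene copies, and how reads with several alignments were counted is not given in the sources used here. Between MU and OE, edgeR called 0 of the 47 tested genes of these 7 lists and DESeq2 called 1, while 8 had an unadjusted p under 0.05 in edgeR. Of all genes tested, 3.17% were called in that comparison. Against 4OHT, 32 of the 47 were called in OE and 31 in MU, beside 57.8% and 56.0% of all genes.

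**Figure D4:**
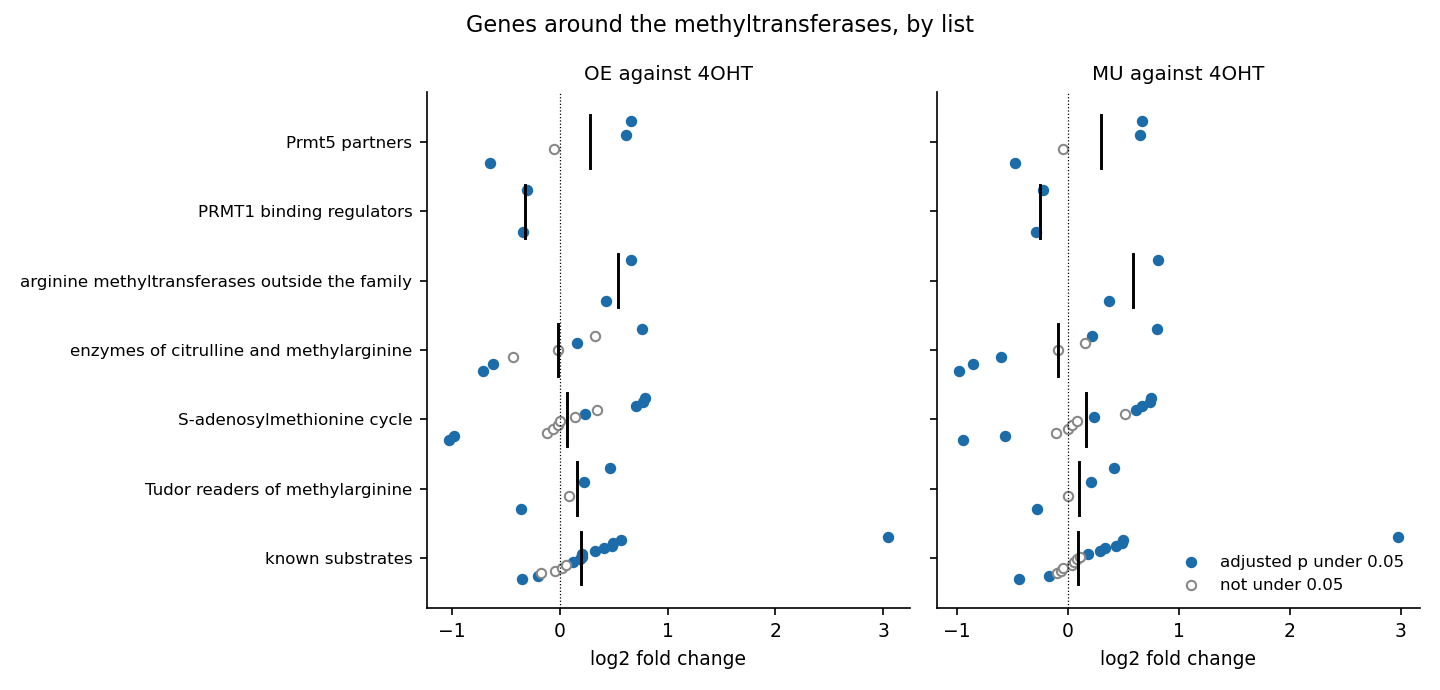
Log2 fold changes (horizontal axis) of the tested genes of 7 lists around the methyltransferases, for OE against 4OHT and MU against 4OHT. Each point is a gene, filled where the adjusted p is under 0.05, and vertical bars are list medians. Most lists hold filled points on both sides of 0, and the point near 3 among the known substrates is Rps2.

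The genes whose pattern over the 9 libraries was nearest to that of Prmt5 were ranked by the root mean square difference of centred log2 CPM among 15417 genes with a mean of at least 1 CPM. The nearest were Siglec1 (0.565), Gpd1 (0.616), Clec7a (0.617), Csf1r (0.672) and Srgn (0.676), where 0 would be an identical pattern. Siglec1, a sialic acid receptor of macrophages, was at 1.74 ± 0.430 CPM in 4OHT, 9.20 ± 0.848 in MU and 30.0 ± 2.45 in OE. Csf1r, the receptor that macrophages need to survive, was at 1.20 ± 0.186, 8.13 ± 0.952 and 20.4 ± 1.91 CPM. No other family member was among these 5. This shows nothing about them, because the ranking depends on the size of change and Prmt8 was below 1 CPM. Csf1r is also a gene of the macrophage marker list given above.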

How the data were processed

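RNA-seq of 9 libraries (3 each of 4OHT, MU and OE) was analysed, with groups taken from the sample labels. The deposited values are raw counts for each gene, as whole numbers, which the authors made from 150 bp paired reads trimmed with Trimmomatic 0.39 among other steps, aligned to GRCm38 with HISAT2 2.2.1 and quantified with StringTie 2.2.1. The strand setting and the conversion to whole numbers are not given in the sources used here. Nor do the sources used here say that replicates came from separate cultures, so p-values measure only the spread between these libraries. A count of 3 corresponds to 0.0082 to 0.0381 CPM and 12 counts (3 read pairs, if a pair stands for 4 counts as the excess of values of 4 hints) to 0.0328 to 0.152 CPM, for counting error only.

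Counts were fitted in R 4.3.3 with edgeR 4.0.16 (filterByExpr with minimum count 10 and minimum total count 15, TMM, quasi-likelihood test, group as the only factor, all 9 libraries, biological coefficient of variation 0.155) and adjusted by Benjamini-Hochberg at 0.05 over 22452 genes. DESeq2 1.42.0 was an alternative. Shares were compared by two-sided exact permutation tests in Python 3.11.15. Coordinates and sequences came from GENCODE vM21, which holds 53706 of the identifiers. On simulated data for OE against 4OHT (21889 genes), 29 of 50 genes changed 1.3-fold, 36 of 50 changed 1.5-fold, 45 of 50 changed 2-fold and 50 of 50 changed 4-fold were recovered, with 6 false calls. No further genes were changed there, whereas 57.8% of genes were called in the data. The adjustment for multiple tests therefore differs, and these rates do not measure the power of the real test.

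Members, gene lists and tests were chosen with earlier results of these data known. The text names all 9 members, all genes of the partner, PRMT1 regulator and outside methyltransferase lists, the 4 genes of highest mean CPM in each other pathway list and the 5 genes most like Prmt5. Mtap and the germ cell markers Zbtb16, Gfra1, Ret, Etv5 and Kit are outside this rule. Alternatives were RLE size factors, total counts, no filter on low counts, DESeq2, a fit of only the libraries compared, counts divided by 4, a replicate block, a 1.5-fold minimum, another exon length and leaving out each library.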

Additional observations from a re-analysis of the deposited data

How the results depend on the processing

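Over the member fold changes, 383 values under an alternative kept their direction and their side of the threshold, 26 lost the call, 6 gained it and 14 turned in direction. Prmt5 in the 3 comparisons, Prmt3 and Prmt9 in both comparisons with 4OHT and Prmt7 in OE against 4OHT were called under each of the 16 other fits, of which Prmt5 alone also passed a 1.5-fold minimum. Prmt2 in OE lost its call under 10, Carm1 under 8 in OE and 5 in MU, and Prmt2 in MU under 3. With a minimum change of 1.5 times, 1 member was called in OE and 1 in MU against 4OHT, where 6 and 5 passed without it. Leaving out 1 library gave 4 to 7 members called in OE and 3 to 6 in MU against 4OHT, with 3 in the latter without MU replicate 3, where Prmt3, Prmt5 and Prmt9 remained. Between MU and OE 1 member was called in every case.

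The values that turned in direction belong to members that were not called in the comparison concerned, and for each the cause was not tested. In MU against OE, Prmt1 became 0.010 on total counts and 0.028 without a filter on low counts, Prmt3 became -0.00247 with RLE size factors and -0.00284 with DESeq2, and Carm1 became 0.0081 without the filter. Leaving out 1 library gave -0.030 to 0.16 for Prmt1 in OE against 4OHT, and in MU against 4OHT it gave -0.039 to 0.15 for Prmt1, -0.073 to 0.14 for Prmt6 and -0.56 to 0.017 for Prmt8. In MU against OE it gave -0.086 to 0.028 for Prmt1 and -0.018 to 0.031 for Prmt3. With the length of the longest transcript in place of all exons, Prmt5 made up 4.34%, 17.2% and 59.95% of the family in 4OHT, MU and OE, and Carm1 8.91% and 8.93% of the other members in MU and OE.

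Scaling to total counts moved the median of all genes to 0.11 in OE and 0.16 in MU against 4OHT, from 0.02 and 0.04, and Carm1 was then not called (-0.13 in both). Same-numbered libraries did not deviate together (correlations of -0.079 to 0.035), so the replicate numbers were not taken as pairs, and with a replicate block 6, 5 and 1 members were called in OE against 4OHT, MU against 4OHT and MU against OE, as without it. Over all genes, MU against OE gave 712 calls, 1565 in a fit of only the libraries compared, 1140 with DESeq2 and 400 to 1099 with 1 library left out (400 without MU replicate 2, 1099 without 4OHT replicate 3). Depth limits Prmt8, which could not be tested once counts were divided by 4. In a check added after the data were seen, 28 to 32 of the 32 list genes called in OE and 29 to 30 of the 31 called in MU against 4OHT kept their call with RLE size factors, total counts, DESeq2 or without 4OHT replicate 1 or 3, and none turned in direction.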
